A study of Mus musculus with 4 samples.

Results

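The Serpina genes described here are 10 protease inhibitor genes in a cluster on mouse chromosome 12: Serpina1a, Serpina1b, Serpina1c, Serpina1d, Serpina1e, Serpina3k, Serpina3m, Serpina3n, Serpina6 and Serpina10. They were chosen by their symbols with the peak lists already known, out of 22363 protein-coding genes of the GENCODE M1 annotation (mm9), and a SHP peak was counted at a gene when it lay within 5 kb of the gene body. Since the choice used the peak lists, all counts and values at these genes are descriptions and carry no test. By this rule 10 of the 1508 peaks in the vehicle-treated group and 10 of the 3155 peaks in the FGF19-treated group belonged to the Serpina genes.

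The peaks come from ChIP-seq of SHP (NR0B2), an orphan nuclear receptor that reaches chromatin through other proteins because it has no domain for binding DNA, in the liver of male C57BL/6 wild-type mice aged 8 to 12 weeks. All mice were fasted for 12 h and injected into the tail vein, one group with vehicle and the other with FGF19 at 1 mg/kg, and livers were taken 2 h later. Chromatin was precipitated with SHP antibody (sc-30169), and material of 3 mice was pooled for the 1 library of each group. There is therefore no replicate error, no p-value is given for a difference between the groups, and the treatment cannot be told apart from the library. ChIP tags used by the peak caller numbered 15473647 with vehicle and 13444078 with FGF19. Peak lists do not measure expression, so the labelled tissue could not be checked against marker genes.

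Serpins are suicide inhibitors: the target protease cuts an exposed reactive centre loop and is trapped by the refolding inhibitor. Hepatocytes secrete many clade A serpins into plasma, and in the mouse both the Serpina1 gene, which encodes alpha-1-antitrypsin, the inhibitor of neutrophil elastase, and the Serpina3 gene of the antichymotrypsin type have been multiplied into groups of near-identical copies. The copies differ most in the reactive centre loop, which the last coding exon encodes. Serpina6 encodes corticosteroid-binding globulin, the plasma carrier of glucocorticoids. Serpina10 encodes the protein Z-dependent protease inhibitor, which acts on activated coagulation factor X.

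SHP peaks were found at Serpina1b, Serpina1c, Serpina3k and Serpina3n in both groups and at Serpina3m with vehicle only. No peak of either list lay within 5 kb of Serpina1a, Serpina1d, Serpina1e, Serpina6 or Serpina10. Of the 20 peaks 18 had their summits over exons 2 to 5, the other 2 lay downstream of Serpina3k, 1 in each list, and exon 1 was under no peak. The largest fold enrichments were at exon 2 of Serpina3k (15.5 with vehicle and 21.8 with FGF19) and at exon 5 of Serpina1b (16.5 with vehicle and 20.9 with FGF19). Fold enrichment is the ratio that the peak caller gives of the pileup, the number of extended ChIP tags over the summit, to the local background of the input library, with 1 added to each.

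Of the 10 genes, 5 had a vehicle peak, and 7.93% of all protein-coding genes did. With FGF19 4 genes had a peak, against 16.3% of all genes, and 4 had a peak in both lists, against 4.31%. Serpina3m was the 1 gene with a peak in the vehicle list only (3.62% of all genes), and 0 of the 10 had a peak in the FGF19 list only (12.0% of all genes). These background shares stand beside counts that the choice of genes has already used, so nothing is read from the comparison. The genes without a peak were far from the limit of 5 kb. The nearest peak to Serpina1a was 29015 bp away with vehicle and 29020 bp with FGF19, that to Serpina1d was 33088 and 30973 bp away, and that to Serpina1e was 27061 and 51640 bp away. For Serpina6 these distances were 70903 and 70845 bp, for Serpina10 96671 and 83963 bp. The closest peak outside the limit of any of the 10 genes was 14419 bp from Serpina3m, with vehicle, and is the peak over exon 2 of Serpina3n. With FGF19, where Serpina3m had no peak of its own, the nearest to it was 19202 bp away. The outermost peaks inside it lay 659 and 686 bp beyond the end of Serpina3k, with vehicle and FGF19. A gene without a listed peak can still have had ChIP signal under the peak caller's cutoff.

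The stretch of Serpina1b under the strongest Serpina1 peak is given here with the same stretch of the other copies, because their likeness bears on which gene a tag can be assigned to. Each line gives 121 coding bases of exon 5 in mm9 on the minus strand, written 5′ to 3′ along the gene, with capitals at the bases that differ from Serpina1b. The stretch includes the codons of the reactive centre loop.
Serpina1b, chr12:104966486-104966606: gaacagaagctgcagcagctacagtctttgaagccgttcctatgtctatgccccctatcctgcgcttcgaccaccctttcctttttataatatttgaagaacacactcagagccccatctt
Serpina1a, chr12:105091919-105092039: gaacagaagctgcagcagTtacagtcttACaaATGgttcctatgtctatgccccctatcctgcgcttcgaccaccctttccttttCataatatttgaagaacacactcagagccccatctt
Serpina1c, chr12:105133256-105133376: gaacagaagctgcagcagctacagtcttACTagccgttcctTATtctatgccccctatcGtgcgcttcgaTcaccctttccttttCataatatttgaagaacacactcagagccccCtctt
Serpina1d, chr12:105001924-105002044: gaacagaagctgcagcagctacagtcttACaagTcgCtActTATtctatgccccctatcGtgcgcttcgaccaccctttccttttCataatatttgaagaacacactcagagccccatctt
Serpina1e, chr12:105185262-105185382: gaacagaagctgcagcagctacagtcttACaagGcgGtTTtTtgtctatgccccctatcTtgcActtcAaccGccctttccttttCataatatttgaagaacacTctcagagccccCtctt

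Over these 121 bases Serpina1a differed from Serpina1b at 7 bases (94.2% identity), Serpina1c and Serpina1d at 10 each (91.7%) and Serpina1e at 14 (88.4%). At 21 positions at least 1 of the 5 copies differed from another, and 12 of these fell within the 20 bases from position 25 to position 44, counted from 1 at the 5′ end of the printed stretch. Over the whole of exon 2 the Serpina1 copies were closer still, with 97.9% to 98.7% identity to Serpina1b over 632 bases. In exons 3 and 4 identity to Serpina1b lay between 93.7% and 96.0%.

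Serpina1b (ENSMUSG00000071178.4, chr12:104966366-104976368, minus strand) had 2 vehicle peaks and 4 FGF19 peaks, all with their summits in coding exons. Over exon 5 the vehicle peak spanned chr12:104966325-104966753 and the FGF19 peak chr12:104966267-104966797, and both summits were at the same base, 104966546. The pileup there was 63 tags with vehicle (95% Poisson interval 48.4 to 80.6) and 59 with FGF19 (44.9 to 76.1). The fold enrichment of 16.5 ranked 11 among the 1508 vehicle peaks and that of 20.9 ranked 8 among the 3155 FGF19 peaks. Poisson intervals of pileups cover counting error only.

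Exon 3 of Serpina1b also had a peak in both groups, at chr12:104968334-104968716 with vehicle and chr12:104968305-104968727 with FGF19, and the summits were 10 bp apart. Its pileup was 41 with vehicle and 27 with FGF19, and its fold enrichment 10.8 and 9.74. Exons 2 and 4 had a peak in the FGF19 list only. The exon 2 peak (chr12:104970024-104970831) reached 29 tags and 4.67-fold over a background of 5.42 tags, and the exon 4 peak (chr12:104967332-104967627) reached 18 tags and 6.61-fold over 1.87 tags. With FGF19, then, exons 2 to 5 of Serpina1b all lay under a peak, and the largest fold enrichment was at the last.

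Serpina1c (ENSMUSG00000079015.2, chr12:105133136-105143097, minus strand), another of the alpha-1-antitrypsin copies, had 1 peak in each list, over exon 5. The vehicle peak (chr12:105133152-105133438) had 36 tags and a fold enrichment of 9.56, and the FGF19 peak (chr12:105133157-105133501) had 31 tags and 11.1. Their summits were 11 bp apart. These were the only Serpina summits within 1 kb of an annotated transcription start site, at 858 and 847 bp from that of B430119L08Rik, a processed transcript on the opposite strand that starts inside Serpina1c. Measured from the start of Serpina1c itself they lay 9848 and 9837 bp downstream.

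**Figure D1:**
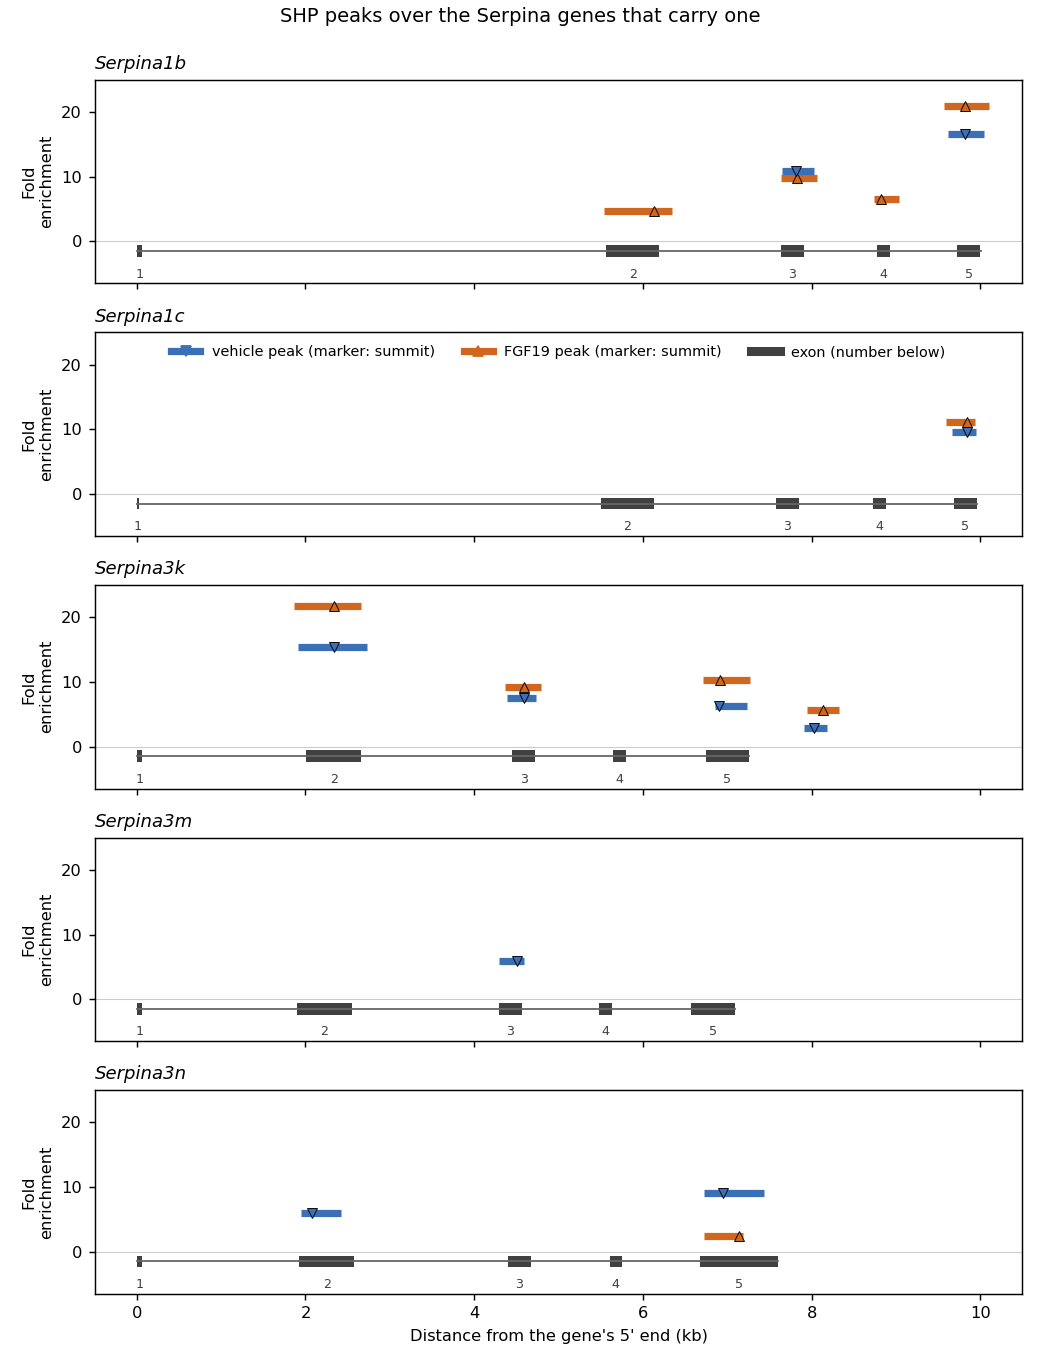
Fold enrichment of SHP peaks (vertical axis, ratio to local input) over the 5 Serpina genes that carry a peak, against distance from the 5′ end of the gene in kb (horizontal axis). Horizontal bars span the peaks, blue with vehicle and orange with FGF19, triangles mark summits and dark boxes the numbered exons. Of the 20 bars 18 have their summit over an exon, and none covers exon 1.

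Serpina3k encodes an inhibitor of the antichymotrypsin type that binds tissue kallikrein. Exon 2 of Serpina3k, exon 2 of Serpina3m and exon 2 of Serpina3n are compared here around the Serpina3k summit, since the peak there was the strongest of all at Serpina genes by pileup and the other copies had either no peak or a peak in 1 list at the same exon. Each line gives 121 coding bases on the plus strand of mm9, with capitals at the bases that differ from Serpina3k.
Serpina3k, chr12:105578972-105579092: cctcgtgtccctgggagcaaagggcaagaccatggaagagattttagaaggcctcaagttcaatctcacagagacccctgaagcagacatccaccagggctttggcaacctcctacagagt
Serpina3m, chr12:105627534-105627654: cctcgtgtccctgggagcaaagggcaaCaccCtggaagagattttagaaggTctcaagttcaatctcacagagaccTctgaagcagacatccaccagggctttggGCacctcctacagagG
Serpina3n, chr12:105647129-105647249: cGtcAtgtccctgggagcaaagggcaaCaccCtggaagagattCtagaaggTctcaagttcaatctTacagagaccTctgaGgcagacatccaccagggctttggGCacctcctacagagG

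Serpina3m differed from Serpina3k at 7 of these bases and Serpina3n at 12. Serpina3k (ENSMUSG00000058207.5, chr12:105576696-105583951, plus strand) had 4 peaks in each list, over exons 2, 3 and 5 and downstream of the gene. Over exon 2 the vehicle peak spanned chr12:105578603-105579424 with a pileup of 100 tags (81.4 to 122), and the FGF19 peak spanned chr12:105578564-105579357 with 122 tags (101 to 146). The fold enrichment was 15.5 with vehicle, rank 13 in its list, and 21.8 with FGF19, rank 7. The summits, 8 bp apart, lay 2344 and 2336 bp downstream of the gene start. The value with FGF19 was thus the higher by pileup and by fold enrichment. Fewer tags were used in that library, and each was lengthened to 260 bp, against 240 bp with vehicle.

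The Serpina3k peaks over exon 3 (chr12:105581080-105581434 with vehicle and chr12:105581062-105581483 with FGF19) had 37 and 39 tags and fold enrichments of 7.55 and 9.28. Those over exon 5 (chr12:105583547-105583926 and chr12:105583405-105583963) had 35 and 33 tags and fold enrichments of 6.22 and 10.23. Exon 4, which is 154 bp long and lies between them, had no peak in either list. The downstream peaks (chr12:105584610-105584874 and chr12:105584637-105585018) had summits 777 and 879 bp beyond the annotated end of the gene and were the only Serpina peaks outside a gene body. There the pileup was 38 tags with vehicle and 22 with FGF19, while the fold enrichments were 2.90 and 5.61 in the same order.

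Serpina3m (ENSMUSG00000079012.4, chr12:105625374-105632467, plus strand) had a single peak, with vehicle, over exon 3 at chr12:105629670-105629966. Its 19 tags were the fewest of the vehicle peaks at Serpina genes (11.4 to 29.7), and its fold enrichment was 5.85. A stretch of that exon is shown with the same stretch of Serpina3k, which had a peak over exon 3 in both groups, and of Serpina3n, which had none there. Capitals mark the bases that differ from Serpina3m, over 101 coding bases on the plus strand.
Serpina3m, chr12:105629827-105629927: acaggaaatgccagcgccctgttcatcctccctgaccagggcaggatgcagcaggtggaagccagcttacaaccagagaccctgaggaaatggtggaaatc
Serpina3k, chr12:105581310-105581410: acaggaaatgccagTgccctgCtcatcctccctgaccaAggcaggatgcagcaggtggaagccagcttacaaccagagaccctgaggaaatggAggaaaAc
Serpina3n, chr12:105649498-105649598: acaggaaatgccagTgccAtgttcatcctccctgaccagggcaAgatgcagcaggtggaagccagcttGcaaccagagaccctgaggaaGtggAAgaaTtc

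Serpina3k differed from Serpina3m at 5 of the 101 bases and Serpina3n at 8. Over the whole exon of 274 bases Serpina3m was 94.9% identical to Serpina3k, and Serpina3n was 81.0% identical to it. Serpina3n (ENSMUSG00000021091.8, chr12:105644939-105652539, plus strand), an acute-phase antichymotrypsin gene, had a vehicle peak over exon 2 (chr12:105646886-105647361, 23 tags, fold enrichment 6.01) that was absent from the FGF19 list. Its other peaks had summits in the 3′ untranslated part of exon 5 and spanned chr12:105651658-105652379 with vehicle and chr12:105651669-105652127 with FGF19. The pileup was 26 tags with vehicle (17.0 to 38.1) and 29 with FGF19 (19.4 to 41.6). The fold enrichments, however, were 9.02 and 2.38 in that order, so the measures ran in opposite directions at this exon. The FGF19 peak at Serpina3n exon 5 had the lowest −log10 q-value of all 20, 2.02 against the list's cutoff of 1.30, and ranked 3127 of 3155 by fold enrichment.

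Taking the 5 genes with a peak together, exon 5 lay under a peak of both lists in 4 genes, exon 3 in 2 and exon 2 in 1. Exon 4, between 151 and 154 bp long in these genes, lay under a peak in 1 gene and in the FGF19 list only, and exon 1, between 29 and 67 bp long, in none. Of the 50 exons of all 10 genes, counted in the longest transcript of each, 9 lay under a vehicle peak, 9 under an FGF19 peak, 7 under both and 11 under either. The share of the exon that its peak covered ranged from 50% at Serpina3n exon 5 with FGF19 to 100%.

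The position of the summits differed from that of the lists as a whole. In each list 8 of the 10 Serpina summits, 80.0%, were in an exon more than 1 kb from any annotated start site, whereas 17.5% of all vehicle peaks and 8.68% of all FGF19 peaks were. Conversely, 72.7% of all vehicle peaks and 81.8% of all FGF19 peaks had a summit within 1 kb of a start site, and 1 of the 10 Serpina peaks did in each list, the one at Serpina1c. Counted by gene, 4 of the 10 Serpina genes had such a distant exonic summit with vehicle (0.827% of all protein-coding genes) and 3 with FGF19 (0.899%). Serpina3k had at least 3 of them in each list and Serpina1b did with FGF19, where 0.0760% of all genes did in each list. The 17 gene records of that share with FGF19 included Alb, which encodes serum albumin, with 8 such summits, and Serpinc1, which encodes antithrombin, with 3. Alb was named after its values were seen.

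The fold enrichment at the Serpina genes lay high in both lists. Its median over the 10 vehicle peaks was 8.29, against 4.14 over all vehicle peaks, and over the 10 FGF19 peaks 9.51, against 4.05. In each list 9 of the 10 were above the list's median, the exceptions being the downstream Serpina3k peak with vehicle and the Serpina3n peak with FGF19. Distant exonic peaks at other genes had medians of 5.31 with vehicle (256 peaks) and 5.08 with FGF19 (266 peaks). By pileup the Serpina peaks stood out less: their median percentile in the list was 86.3 with vehicle and 81.0 with FGF19, where by fold enrichment it was 94.5 and 98.7. The local input background that pileup and fold enrichment imply had a median of 2.93 tags at the vehicle peaks and 2.71 at the FGF19 peaks, against 4.84 and 5.25 over the whole lists. At 4 of the 10 FGF19 peaks, all at Serpina1b or Serpina1c, and at 1 vehicle peak, that of Serpina3n exon 5, it was at the lowest value of its list (1.87 and 1.99 tags). The part of low input in these fold enrichments was not tested.

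**Figure D2:**
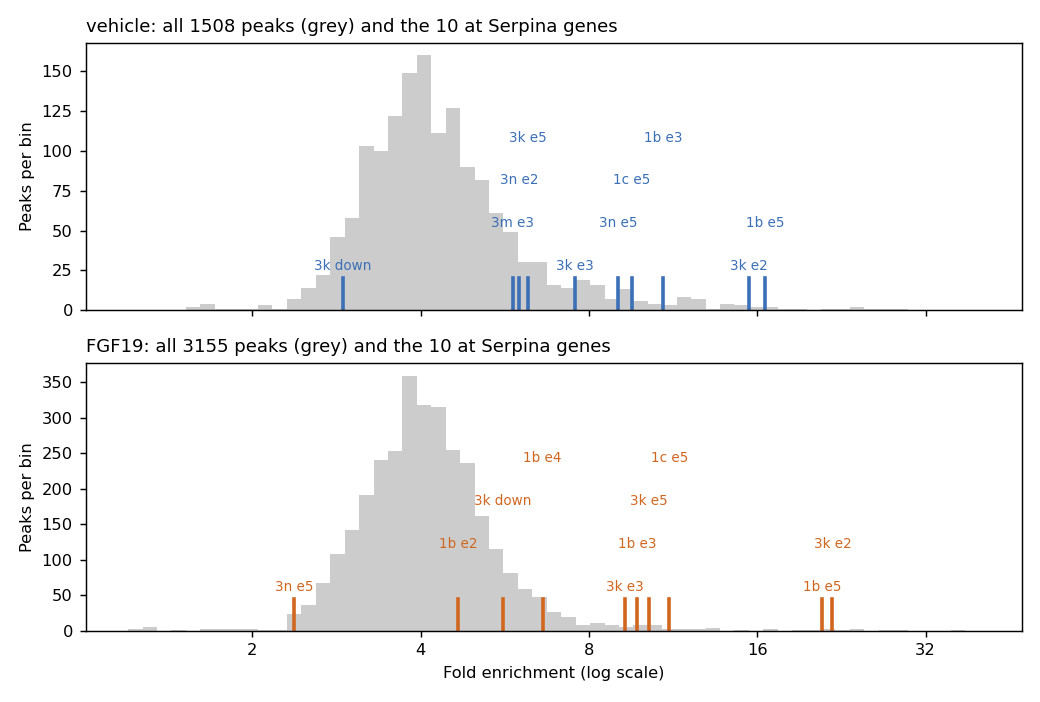
Number of peaks (vertical axis) by fold enrichment (horizontal axis, log scale) in the vehicle list above and the FGF19 list below, in grey. Coloured ticks mark the 10 peaks of each list at Serpina genes, named by gene and exon (e) or as downstream (down), and all but 1 in each list lie above the list's median of 4.14 or 4.05.

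At 8 regions a vehicle peak was overlapped by an FGF19 peak, by at least 1 bp, out of 10 Serpina peaks in each list. The whole lists, of 1508 and 3155 peaks, held 695 overlapping pairs. Of the distant exonic peaks at other genes, 171 of 256 with vehicle and 169 of 266 with FGF19 overlapped a peak of the other list. Nothing is read from this comparison, as the genes were chosen with the lists known. The summits of the 8 Serpina pairs were 0 to 190 bp apart with a median of 9.5 bp, and 62.5% of them were within 10 bp. Over all 695 pairs the median was 59.0 bp and 15.4% were within 10 bp. The coincidence of summits at Serpina1b exon 5 occurred in 11 of the 695 pairs. The 3 pairs farther apart were Serpina1c exon 5 at 11 bp, downstream of Serpina3k at 102 bp and Serpina3n exon 5 at 190 bp.

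Fold enrichment was higher with FGF19 at 6 of the 8 regions and lower at Serpina1b exon 3 and Serpina3n exon 5. The median log2 ratio was 0.32 over the 8 regions and −0.016 over all 695 overlapping pairs. The regions belong to genes chosen with the lists known, so nothing is read from the count or from these medians. The log2 ratio of FGF19 to vehicle was 0.34 at Serpina1b exon 5, −0.16 at Serpina1b exon 3 and 0.22 at Serpina1c exon 5. Along Serpina3k it was 0.50 at exon 2, 0.30 at exon 3, 0.72 at exon 5 and 0.95 downstream. At Serpina3n exon 5 it was −1.92, and 0.288% of all 695 pairs had a ratio as low or lower. The quartiles over all pairs were −0.37 and 0.32, and the Serpina1b exon 5, Serpina3k exon 2, exon 5 and downstream, and Serpina3n values lay outside them.

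The pileup does not involve the input. Scaled to 1000000 ChIP tags used it was higher with FGF19 at 5 of the 8 regions, and unscaled at 3. The median log2 ratio of the scaled pileup was 0.11 over the 8 regions, below the 0.20 over all 695 overlapping pairs. By fold enrichment the 8 regions had the higher median. The ratio of FGF19 to vehicle of the scaled pileup was 1.40 at Serpina3k exon 2, with an exact 95% interval for counting error of 1.07 to 1.85, and this was the 1 region whose interval did not include 1. That interval allows for neither the median of all pairs nor the longer extension, so no difference at Serpina3k is read from it. At Serpina1b exon 5 the ratio was 1.08 (0.743 to 1.56), at Serpina1c exon 5 0.991 (0.593 to 1.65) and at Serpina3n exon 5 1.28 (0.730 to 2.27). At Serpina1b exon 3 it was 0.758 (0.448 to 1.26), a larger difference than in fold enrichment, and at exons 3 and 5 of Serpina3k 1.21 (0.754 to 1.96) and 1.09 (0.654 to 1.80). At the downstream Serpina3k region it was 0.666 (0.375 to 1.16), the opposite direction to the fold enrichment. These intervals hold no spread between mice or between ChIP experiments.

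The local background, which is derived from the fold enrichment and the pileup, also differed between the groups. At all 3 regions of Serpina1b and Serpina1c it was 2.87 tags with vehicle and 1.87 with FGF19, while the fold enrichment was higher with FGF19 at both exon 5 regions and lower at Serpina1b exon 3. The value of 1.87 is the lowest of the FGF19 list and was shared by 79 of its 3155 peaks, so it need not describe the input at these exons. At Serpina3k exon 5 it was 4.79 and 2.32, and downstream of Serpina3k 12.4 and 3.10. At Serpina3n exon 5 it went the other way, from 1.99 tags with vehicle to 11.6 with FGF19, a ratio of 5.83, where the pileup differed by 3 tags. The value of 1.99 is the lowest of the vehicle list, shared by 42 of its 1508 peaks, so the same limit applies to it. At the 2 regions with the largest differences in fold enrichment, in other words, the background differed more than the pileup did. The same 2 regions had the summits farthest apart, 102 bp downstream of Serpina3k and 190 bp at Serpina3n exon 5. Each list's values belong to its own summit, so the 2 backgrounds compared there are from different positions. No counting error is given for the background or the fold enrichment. How far the input or the shift of the summits set these differences was not tested.

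**Figure D3:**
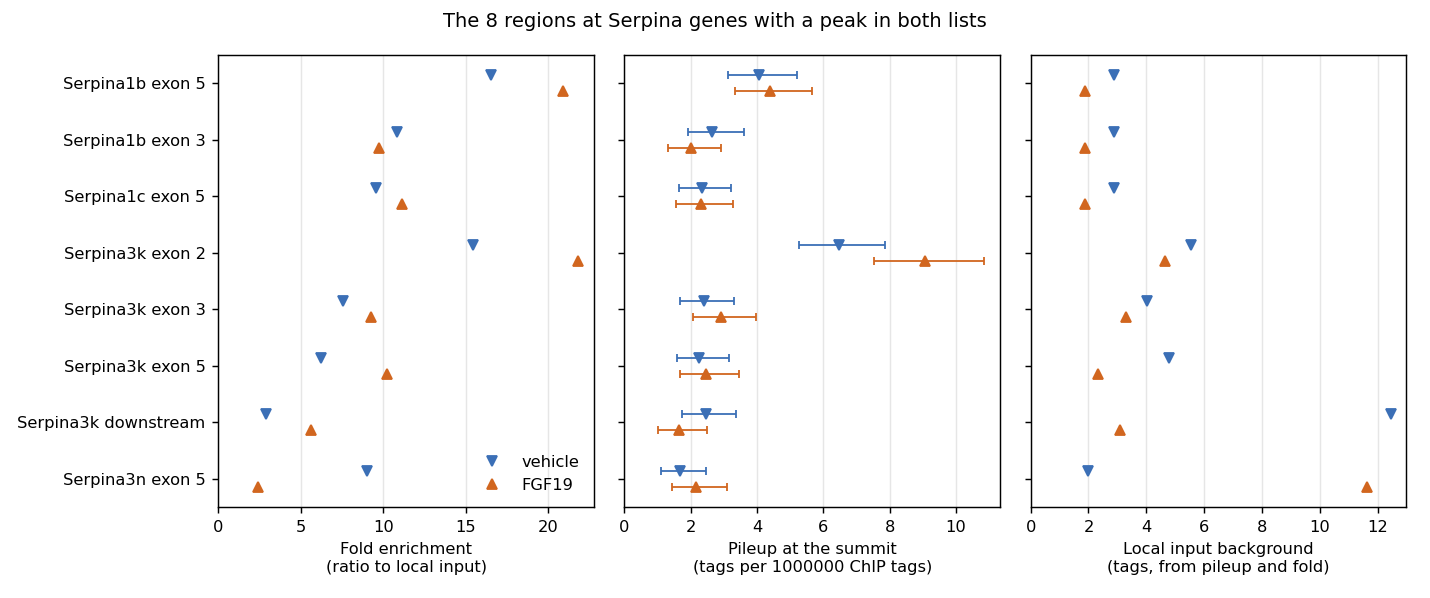
Fold enrichment (left), pileup at the summit in tags per 1000000 ChIP tags with 95% Poisson intervals of the counts (middle) and local input background in tags (right) at the 8 Serpina regions with a peak in both lists, 1 library per group. Blue triangles stand for vehicle and orange for FGF19. The intervals overlap at every region in the middle panel, while the backgrounds of Serpina3k downstream and Serpina3n exon 5 lie far apart. Values are those at each list's own summit.

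Because the copies are alike, it was asked how much of each exon a sequenced tag could place. Windows of 100 bases, the tag size of both libraries, were compared with the whole of mm9 on both strands, allowing up to 2 mismatches as the aligner was set to do. At Serpina6 and Serpina10 every window touching an exon matched 1 place, and neither gene had a peak. At Serpina3n 98.7% of windows did, at Serpina3k 83.7% and at Serpina3m 81.6%. The Serpina1 copies were lower, with 56.7% at Serpina1e, 46.9% at Serpina1d, 33.03% at Serpina1b, 24.5% at Serpina1a and 18.4% at Serpina1c. The share was between 18.4% and 98.7% at the genes with a peak and between 24.5% and 100% at those without.

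Among the Serpina1 copies, exon 5 was unique in 41.4% of windows at Serpina1b and 42.7% at Serpina1c, which had peaks there. It was unique in 34.1% at Serpina1a, 70.03% at Serpina1d and 92.6% at Serpina1e, which had none. Exact windows of 101 bases touching exon 5 were unique more often, in 99.7% at Serpina1b and 85.4% at Serpina1a. At Serpina1c, Serpina1d and Serpina1e 100% of these exact windows were. At the summits themselves, with up to 2 mismatches, 74.0% of the 100 windows covering the Serpina1b exon 5 summit matched 1 place and none matched more than 4. At Serpina1c exon 5 the share was 15.0% at the vehicle summit and 26.0% at the FGF19 summit. All windows over the summits at Serpina3k, Serpina3m and Serpina3n matched 1 place. Exon 2 of Serpina1b, with a peak in the FGF19 list only, was the least unique exon under a peak, at 14.6%, and windows there also matched the other 4 Serpina1 copies and the annotated gene Gm8893. How reads that match several places were treated is not given in the sources used here, so the assignment of a peak to Serpina1b or Serpina1c rather than to another Serpina1 copy is uncertain, and its part in the gap between copies with and without peaks was not tested.

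**Figure D4:**
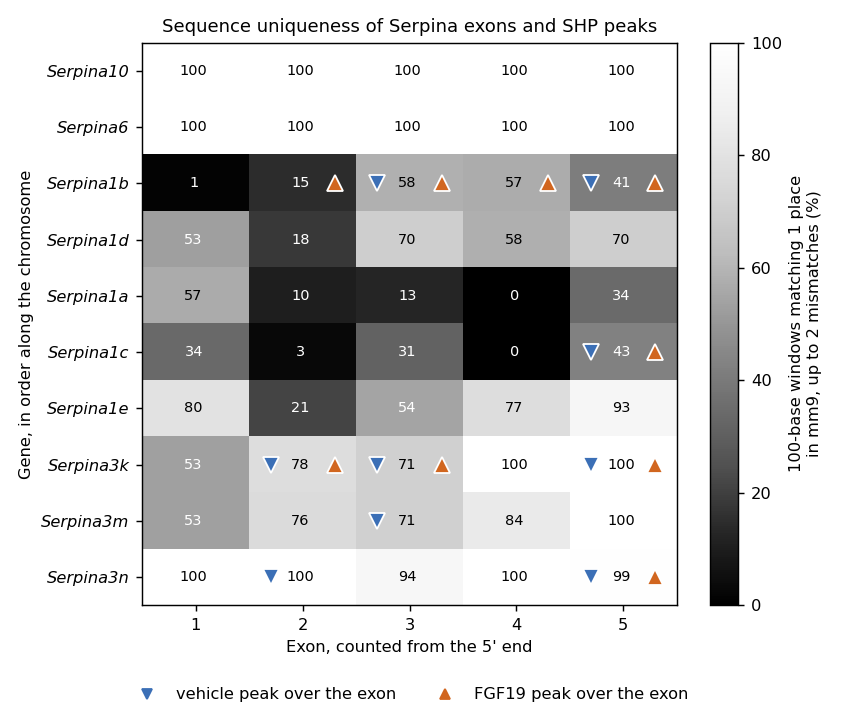
Share of 100-base windows touching an exon that match 1 place in mm9 with up to 2 mismatches, in percent (grey scale and numbers), for exons 1 to 5 (horizontal axis) of the 10 Serpina genes (vertical axis). Blue and orange triangles mark exons under a vehicle or an FGF19 peak, which occur both at exons near 100 and at Serpina1b exon 2, at 14.6.

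Exact matches to short consensus sequences were searched on both strands within 100 bp of each summit. A C/EBP-type sequence, TTNNGNAA, was found at 3 of the 10 Serpina summits in each list, namely at Serpina1c exon 5, Serpina3k exon 2 and downstream of Serpina3k. It was found at 19.9% of all vehicle peaks, 15.1% of all FGF19 peaks and 23.1% of the windows within 100 bp of the starts of 22380 protein-coding genes. The nuclear receptor half-site AGGTCA was found at 1 Serpina summit, Serpina1b exon 4 with FGF19 (9.08% of all vehicle peaks, 7.13% of all FGF19 peaks and 8.91% of gene starts). The NF-Y type sequence ATTGGC was found at 1, Serpina3n exon 2 with vehicle (11.2%, 11.1% and 12.0%). The YY1-type AANATGGC (9.75%, 7.54% and 5.72%), the E-box CACGTG (6.37%, 6.40% and 5.56%) and the SP1-type CCCCGCCCC (13.1%, 14.8% and 11.9%) were at none of the Serpina summits.

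Of 17 other Serpina genes on chromosome 12, 1 had a vehicle peak and 0 an FGF19 peak, where 7.93% and 16.3% of all protein-coding genes did. These genes were taken by symbol, whatever their gene type, and nothing is read from the comparison. For the gene counts of the lists below the same shares apply, with 4.31% for both lists. The gene with the vehicle peak was Serpina11, with a peak over exon 2 of 3.52-fold (chr12:105224246-105224485), a gene named after its value was seen. Of 11 genes between the outermost members whose symbols do not start with Serpina, B430119L08Rik alone was within 5 kb of a peak, that of Serpina1c. The only other peak of either list inside the cluster was an FGF19 peak at chr12:105304323-105304704, 14155 bp from Serpina4-ps1, with a fold enrichment of 4.93.

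Outside the cluster, 4 of 39 serpin genes of other clades had a vehicle peak, 4 an FGF19 peak and 3 both. Serpinc1 had peaks over exons 3, 4 and 6 in both lists, with fold enrichments of 6.41 to 7.75 in the vehicle list and 5.13 to 6.35 in the FGF19 list. Serpinf2, which encodes alpha-2-antiplasmin, reached 5.59-fold with vehicle and 6.91-fold with FGF19, both over exon 10. Serping1, which encodes the C1 inhibitor, had 4.44-fold with vehicle and 5.49-fold with FGF19 over exon 3. Serpind1, which encodes heparin cofactor II, had 2 peaks with FGF19 only, the larger of 4.42-fold over exon 2. The summits at these 4 genes lay in exons inside the gene. The remaining gene with a peak, Serpini1, which encodes neuroserpin and is named here after its value was seen, had a vehicle peak of 3.29-fold upstream of the gene, 16 bp from an annotated start site.

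Among 16 genes listed as target proteases or other partners of clade A serpins, 3 had a vehicle peak, 3 an FGF19 peak and 2 both. F10 encodes factor X, whose activated form the Serpina10 product acts on. This gene had a peak over exon 9 of 7.25-fold with vehicle and 6.65-fold with FGF19. Tmprss6, a hepatic membrane protease gene, had 5.57-fold over exon 18 with FGF19 only. The other gene with peaks in both lists was Nr3c1, which encodes the glucocorticoid receptor and not a protease, with 6.29-fold at the most with vehicle and 4.29-fold with FGF19. Of 10 genes for liver transcription factors and nuclear receptors, 4 had a vehicle peak, 4 an FGF19 peak and 2 both. The highest fold enrichments there were 5.70 at Cebpa with FGF19, 5.35 in intron 1 of Hnf4a with vehicle, 4.63 at Cebpb with FGF19 and 4.53 at exon 2 of Foxa1 with FGF19.

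For comparison, of 13 apolipoprotein genes 10 had a vehicle peak and 12 an FGF19 peak, and of 12 genes for plasma carrier proteins 11 and 9 did. Of 31 coagulation and complement genes 15 did in each list. Distant exonic summits were present at 7 and 8 of the apolipoprotein genes, at 11 and 9 of the carrier genes and at 14 and 13 of the coagulation and complement genes, with vehicle and FGF19. Distant exonic summits were therefore not particular to the Serpina genes. All these lists were drawn up with results of these data known.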

How the data were processed

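ChIP-seq of SHP was analysed from the MACS2 peak lists that the authors deposited, 1 for each group. Per the submitters' processing notes the reads were handled with CASAVA 1.8.2, Bowtie 1.0.0 and MACS2 2.0.10.20130501. The authors aligned them to mm9 with up to 2 mismatches and called peaks against the input of the same group at a q-value cutoff of 0.05, keeping 1 duplicate tag. The deposited signal is the pileup of tags, which the caller lengthened to 240 bp for vehicle, and to 260 bp for FGF19. The deposited fold enrichment is a ratio to the local input, and the deposited −log10 p-values and −log10 q-values are those of the peak caller. The treatment of reads that match several places is not given in the sources used here.

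The input background was computed as (pileup + 1) / fold enrichment − 1. Intervals are exact Poisson intervals for pileups and exact binomial ones for ratios, at 95%. Positions were related to GENCODE M1 on mm9. Windows of 100 bases with up to 2 mismatches, and exact windows of 101 bases, were compared with the genome. The overlap and window functions were tested on simulated data. All 10 members were named with every peak, and of the other genes in the family and pathway lists at most 12, by largest fold enrichment. The members and all lists were chosen with earlier results of these data known. C5 was not matched in the annotation and was left out of its list. The tools were numba 0.67.0, scipy 1.17.1, pandas 2.3.3, pyfaidx 0.9.0.4, matplotlib 3.10.9 and numpy 2.4.6 under Python 3.11.15. No protein sequences were used.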

Additional observations from a re-analysis of the deposited data

How the results depend on the processing

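With the pileup in place of the fold enrichment, 3 of the 8 regions in place of 6 were higher with FGF19. The log2 ratio of pileups then had the other sign at Serpina1b exon 5 (−0.095), Serpina1c exon 5 (−0.22), Serpina3k exon 5 (−0.085), downstream of Serpina3k (−0.79) and at Serpina3n exon 5 (0.16). Scaled to tags used it had the other sign at Serpina1c (−0.013), downstream of Serpina3k (−0.59) and at Serpina3n (0.36). The −log10 q-value reversed Serpina1c alone (log2 ratio −0.000546). Among the counts of genes, peaks and regions, 47 values stayed within 1.5 times the reported ones and 1 did not, the 3 regions by pileup. The alternatives were other measures, stricter thresholds, a shortened FGF19 list, other distances and overlaps, and leaving out peaks in sequence of low uniqueness. That last alternative, by 100-base windows with up to 2 mismatches, was added after seeing the data. It left out 1 vehicle peak and 3 FGF19 peaks, and kept 5 genes with vehicle and 4 with FGF19. All peaks left out were at Serpina1b, over exon 5 in both lists and over exons 2 and 4 with FGF19. The strongest Serpina1 peak was thus removed, and Serpina1b kept only its exon 3 peak in each list. No paired analysis was possible because each group is 1 pooled library. The pileups at these genes were 18 to 122 tags, which sets the width of their counting intervals.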
